A study of Homo sapiens with 4 samples.

Results

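The 49 genes described here carry out or control the copying of DNA: origin licensing factors, the subunits of the replication fork, and genes that drive the passage from G1 into S phase. They were listed by gene name, with earlier results of these data known, lower cell cycle genes among them, so the direction reported below is not independent evidence. A probe set counted when the platform annotation gave it 1 of these symbols and no other. All 49 were measured, by 92 of the 39464 probe sets that name 1 gene and have a value on every array. For every gene the brightest probe set on average was kept, so the 49 stand among 19583 genes. The arrays measured total RNA of LNCaP, an established androgen-responsive human prostate tumor cell line, that carried a lentivirus encoding ERG joined to red fluorescent protein (LNCaP-ERG, n = 2) or with the control lentivirus for the fluorescent protein alone (LNCaP-vector, n = 2). Both were seeded overnight in standard culture medium before RNA was extracted with Trizol. The labels do not tell whether the 2 arrays of a group stem from separate cultures. The p-values therefore reflect the spread among these arrays alone, and that spread may be technical.

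Before a cell can copy its genome, the origin recognition complex, CDC6 and CDT1 load rings of MCM2 to MCM7 onto DNA, a step called licensing. At the start of S phase the rings are turned into running helicases by CDC45, the GINS complex and MCM10, and primase, DNA polymerases, the PCNA clamp and its RFC loader then build the new strands. Many of these genes are transcribed together when E2F factors are released from the retinoblastoma protein, a release that cyclin E and CDK2 reinforce, and E2F7 and E2F8 later repress the same genes. ERG itself is an ETS transcription factor that is overexpressed in many prostate tumors through fusion with TMPRSS2.

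The lentiviral ERG was not visible on these arrays. The 4 ERG probe sets had log2 fold changes of -0.24 to 0.12, and all lay at log2 intensities of 2.65 to 3.58, below 4.45, the 95th percentile of 35 measured genes of other organs that stands here for the level of genes not in use. The label of the groups is therefore not checked by ERG, and it is not known if their probes match the lentiviral transcript. All 8 measured luminal prostate markers lay above that level on average, with KLK3, which encodes prostate-specific antigen, at 12.81 and 12.85 in the LNCaP-ERG arrays and 12.94 and 12.97 in the vector arrays. Of 9 measured basal, mesenchymal and blood cell markers, 7 lay below it, KRT5, KRT14 and PTPRC among them, while VIM and COL1A1 lay above it. The log2 of the summed intensities of these 9 was 9.97 to 10.0 in the LNCaP-ERG arrays and 9.51 to 9.59 in the vector arrays. VIM and COL1A1, the bright ones, make up most of this sum. VIM had a log2 fold change of 0.55 (adjusted p = 0.24 from limma) and COL1A1 0.38 (adjusted p = 0.35). VIM passed under trended, robust moderation (adjusted p = 0.014) and without genes below the median intensity (adjusted p = 0.045), while averaged probe sets gave 0.22 for VIM and 0.092 for COL1A1. The part of this difference in the results below was not tested.

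Replication and G1/S genes were lower in the LNCaP-ERG arrays by small amounts that ran through nearly the whole list. Of the 49 genes, 47 had a log2 fold change below 0, the exceptions being POLE at 0.08 and LIG1 at 0.01, while 47.2% of all genes lay below 0. The median log2 fold change was -0.15, a 1.11-fold lower level, against 0.01 over all genes, and 12.7% of all genes lay below the members' median. In 35 of the 49 (71.4%) both LNCaP-ERG arrays read below both vector arrays, where 19.1% of all genes did so. The reverse held for POLE alone, where 21.7% of all genes were higher without overlap. Of probe sets with a mean log2 intensity of at least 4.45, 71.8% of the members' and 25.0% of all read lower without overlap. In RNA of whole cultures, fewer cells in S phase and less transcript per cell cannot be told apart.

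No single member passed the test over all genes. At an adjusted p under 0.05 from limma, 2 genes (0.0102%) were called, DDC and PEG3, and neither is a replication gene. At an unadjusted p under 0.05, 17 of the 49 (34.7%) were lower and 0 were higher, where 4.11% of all genes were lower and 5.61% higher. Without genes below the median intensity, 19 of the 46 members left were lower, where 7.34% of the genes left were. The methods' t-test gave 11 of the 49 lower at that threshold, where 3.76% of all genes were lower by the same test. The smallest adjusted p among the members was 0.29. Sizes were modest: no member reached a log2 fold change of -1, 10 reached -0.3, as 2.93% of all genes did, and CCNE2 and E2F7 were among the 100 lowest of all genes.

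**Figure D1:**
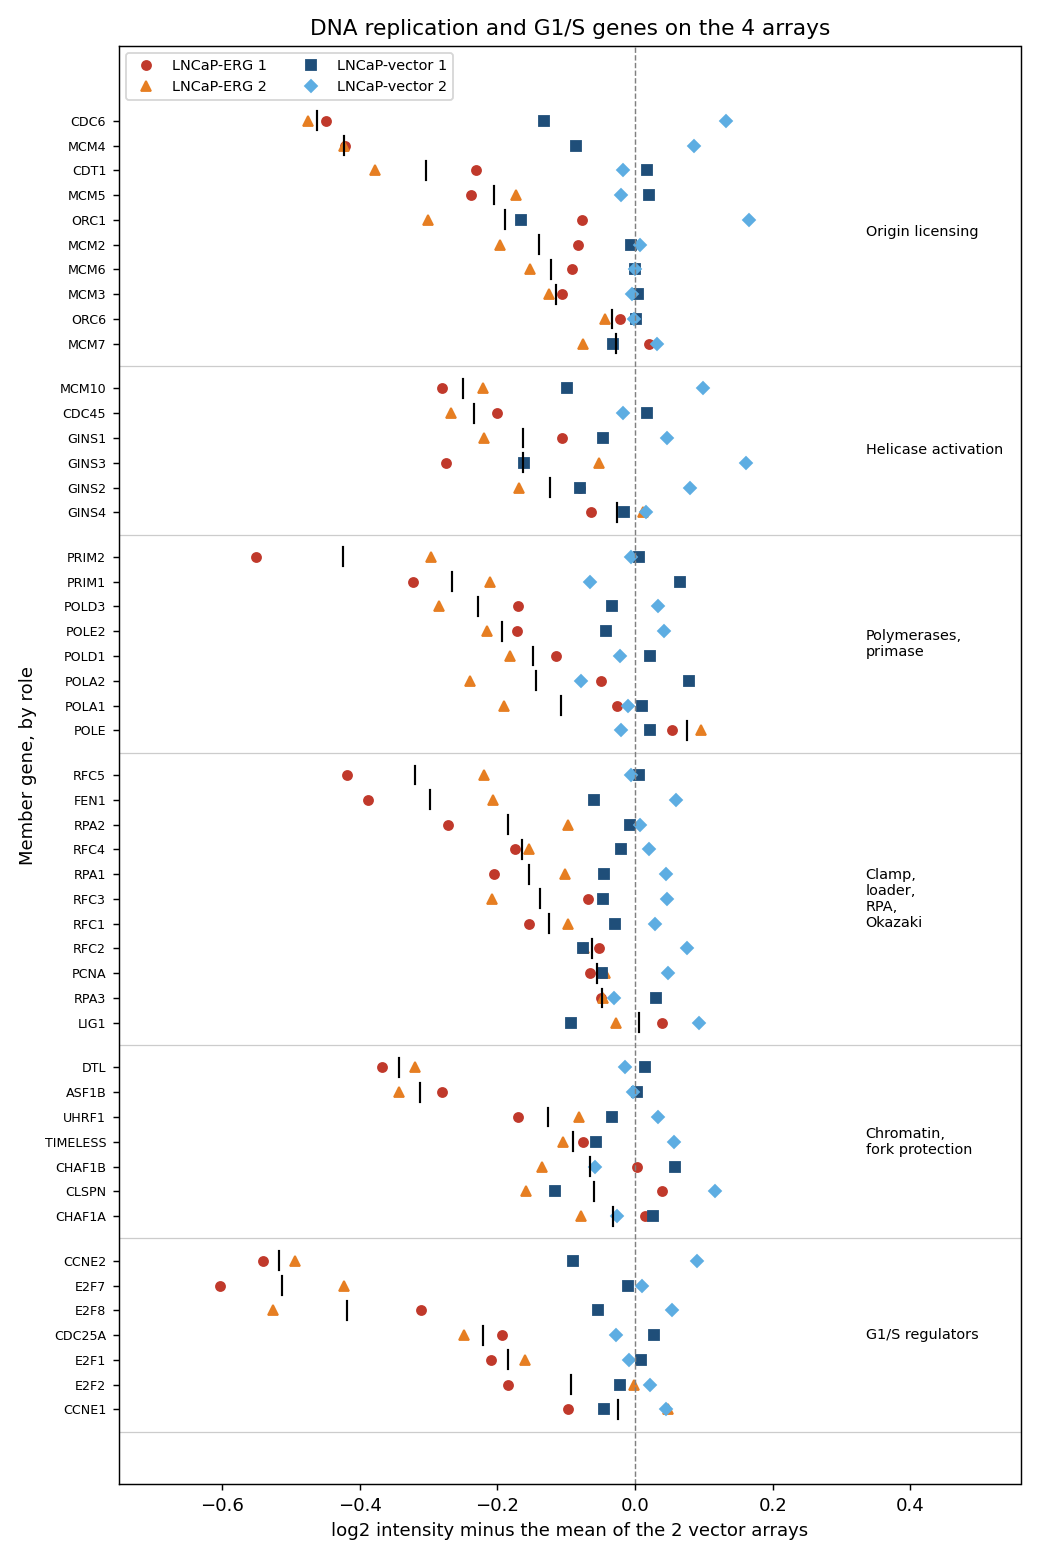
Log2 intensity minus the mean of the 2 vector arrays (x axis) for each of the 49 genes, grouped by role (y axis). Symbols are single arrays and short black lines the LNCaP-ERG means. Most LNCaP-ERG symbols lie left of both vector symbols, from CCNE2 at a mean of -0.52 to POLE at 0.08.

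The shift did not rest on 1 array. Each gene was set against its own mean over the 4 arrays, and the median of these deviations over the 49 genes was -0.079 and -0.085 in the LNCaP-ERG arrays and 0.061 and 0.10 in the vector arrays. The groups did not overlap, and the same medians over all genes ran only from -0.010 to 0.015. When each LNCaP-ERG array was set against each vector array, 41 to 47 of the 49 genes were lower, with medians of -0.18 to -0.13. In the same pairs 44.3% to 52.3% of all genes were lower, with medians of -0.0094 to 0.025. Within a group the arrays differed less: the members' median difference between array 2 and array 1 was -0.02 for LNCaP-ERG and 0.04 for vector. Leaving out 1 array in turn gave members' medians of -0.18 to -0.12. The weakest came without the second vector array, which read highest for the list.

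**Figure D2:**
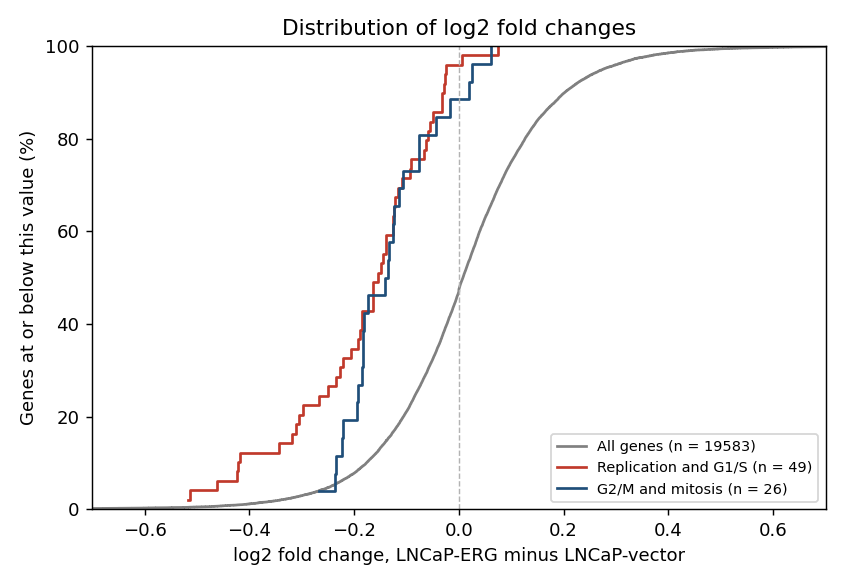
Percentage of genes (y axis) at or below a given log2 fold change, LNCaP-ERG minus LNCaP-vector (x axis), for all 19583 genes, the 49 replication and G1/S genes and 26 G2/M genes. At their medians, -0.15 and -0.14, both cell cycle curves lie left of the curve of all genes, with its median of 0.01. In the lower tail this does not hold, since all genes reach down to -2.06, beyond the axis. Of the cell cycle lists drawn here only the replication and G1/S genes extend beyond -0.4. RBL1 at -0.45 and CDK6 at -0.44, of the RB-E2F and G1 cyclin control list that is not drawn, do so too.

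Promoters were read to see what the genes share in sequence, since E2F control is part of what defines many of them. RefSeq promoter windows of GRCh38.p14, from 250 bases before to 50 bases after the annotated start, were found for 41 of the 49 genes. CCNE2, E2F8, GINS4, MCM4, MCM5, POLD3, RPA2 and RPA3 had no entry. An E2F-type motif (TTTCGCGC, TTTGGCGC, TTTCCCGC or TTTGCCGC on either strand, where matches on opposite strands can share letters) stood in 22 of the 41 genes (53.7%), as in 3 of 20 G2/M genes (15.0%) and 5.41% of 15262 genes on the arrays. By window it was 23 of 50 (46.0%) against 3.31% of all 35116. Of the 30 matches in the members, 23 began within 100 bases of the start. As genes were listed partly for E2F control, this richness follows in part from the choice.

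The 6 members below are those with the smallest p among genes with such a match, shown from 60 bases before the first match to 30 bases after the last, or to 30 bases past the annotated start. Capitals mark the E2F-type motif, and each run is written 5′ to 3′ on the strand of its gene. DTL lies at chr1:212035680-212035777 on the plus strand, CDC6 at chr17:40287826-40287908 (plus), CDT1 at chr16:88803694-88803791 (plus), CDC25A at chr3:48188424-48188521 (minus), POLE2 at chr14:49688185-49688279 (minus) and E2F1 at chr20:33686368-33686478 (minus).
DTL: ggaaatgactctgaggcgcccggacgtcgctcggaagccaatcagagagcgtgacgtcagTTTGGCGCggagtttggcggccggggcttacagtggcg
CDC6: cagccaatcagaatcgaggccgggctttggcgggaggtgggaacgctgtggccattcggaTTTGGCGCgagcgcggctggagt
CDT1: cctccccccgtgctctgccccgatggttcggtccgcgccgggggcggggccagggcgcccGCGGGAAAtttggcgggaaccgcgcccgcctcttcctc
CDC25A: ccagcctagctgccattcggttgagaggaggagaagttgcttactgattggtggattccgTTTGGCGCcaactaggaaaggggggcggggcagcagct
POLE2: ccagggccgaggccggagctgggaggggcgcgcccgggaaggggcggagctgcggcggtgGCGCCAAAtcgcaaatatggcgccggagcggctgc
E2F1: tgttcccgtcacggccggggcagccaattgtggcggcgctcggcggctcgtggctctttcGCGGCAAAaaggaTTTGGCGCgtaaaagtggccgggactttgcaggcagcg
The same 8 letters, TTTGGCGC, stand in all but CDT1 and POLE2, and POLE2 holds them on the other strand. E2F1, which encodes a factor that binds such sites, has 2 matches, and its motifs start 33 and 20 bases before the annotated start.

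Among the 22 members with an E2F-type motif the median was -0.13 on the log2 scale, and 14 of the 22 were lower without overlap. Among the 19 without one it was -0.16, with 14 of the 19 lower, where 19.1% of all genes were. At an unadjusted p under 0.05 from limma, 4 of the 22 and 8 of the 19 were lower, against 4.11% of all genes. The 8 members without an entry had a median of -0.22, with 7 lower without overlap and 5 at that threshold. These differences were not tested. The CCAAT box, bound by NF-Y, stood in 26 of the 41 members (63.4%), 17 of the 20 G2/M genes (85.0%) and 41.8% of the genes on the arrays. CHR-type letters (TTTGAA or TTCGAA on either strand, the second being its own complement), known from G2/M promoters, stood in 2 of the 41 members (4.88%), 15 of the 20 G2/M genes (75%) and 17.2% of the genes on the arrays. An ETS-type motif (CCGGAAGT on either strand) stood in 3 of the 41 members (7.32%), close to the 7.10% of the genes on the arrays. A match is only a run of letters and not a measured binding site.

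**Figure D3:**
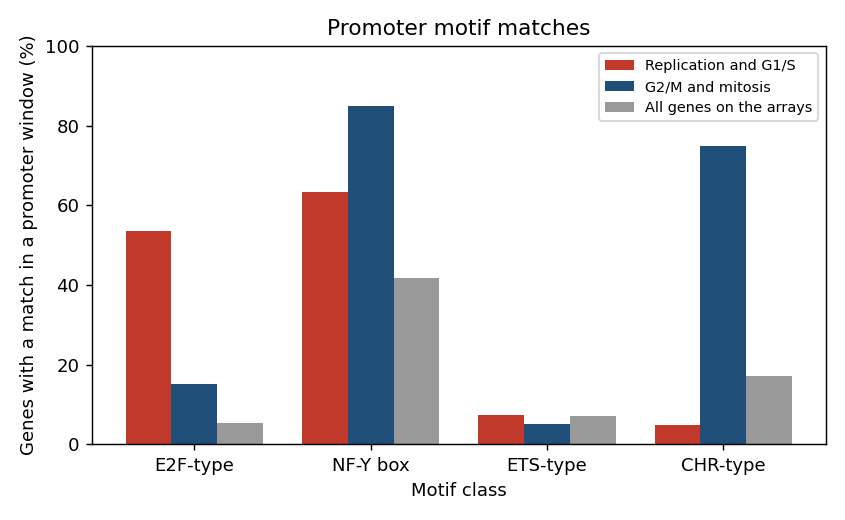
Percentage of genes with at least 1 match in a promoter window (y axis, from 0 to 100) for 4 motif classes (x axis), in 41 replication and G1/S genes, 20 G2/M genes and 15262 genes on the arrays. The E2F-type share is highest in the replication and G1/S genes at 53.7%, and the CHR-type share in the G2/M genes at 75%.

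Among the G1/S regulators, all 7 genes had a log2 fold change below 0, against 47.2% of all genes, and their median was -0.22. Lower without overlap were 5 of the 7, against 19.1% of all genes. CCNE2, a cyclin E that activates CDK2, read 7.04 and 7.08 on the log2 scale in the LNCaP-ERG arrays and 7.49 and 7.67 in the vector arrays, 1.43-fold lower (log2 fold change -0.52 with SE 0.09, limma adjusted p = 0.29). E2F7, an atypical E2F that represses replication genes late in S phase, read 6.79 and 6.97 against 7.38 and 7.40, also 1.43-fold lower (-0.51 with SE 0.09, adjusted p = 0.29). These were the lowest fold changes of the 49, ranks 82 and 87 from the bottom of all genes, and in neither gene did the groups overlap. E2F8, the partner of E2F7, read 5.13 and 4.91 against 5.39 and 5.49 (-0.42 with SE 0.11, adjusted p = 0.37). CDC25A, the phosphatase that removes the inhibitory phosphate from CDK2, read 7.56 and 7.50 against 7.78 and 7.72 (-0.22 with SE 0.08, adjusted p = 0.47). Both were lower without overlap as well.

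Other regulators moved less. E2F1, the activator E2F, read 5.84 and 5.89 against 6.05 and 6.04, a log2 fold change of -0.18 with a 95% interval of -0.38 to 0.01. E2F2, another activator, had -0.09 with overlapping groups. CCNE1, the second cyclin E gene, read 7.47 and 7.61 against 7.52 and 7.61, with a log2 fold change of -0.02 and an interval of -0.26 to 0.21. Its arrays overlapped, unlike those of CCNE2, and the difference between these cyclin genes was not tested.

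In the licensing group all 10 genes were below 0 and 8 were lower without overlap, against 47.2% and 19.1% of all genes. The group's median was -0.16, and it was -0.098 without LNCaP-ERG array 2. CDC6, the ATPase that loads MCM rings, read 7.32 and 7.29 in the LNCaP-ERG arrays and 7.63 and 7.90 in the vector arrays (log2 fold change -0.46 with SE 0.11, limma adjusted p = 0.37). Its partner CDT1 read 7.62 and 7.47 against 7.87 and 7.83 (-0.30 with SE 0.09, adjusted p = 0.40). Both loaders were lower on each LNCaP-ERG array, CDC6 by 1.38-fold and CDT1 by 1.23-fold. GMNN, geminin, which binds and blocks CDT1 and is not among the 49, read 9.88 and 9.85 against 10.23 and 10.27 (-0.39 with SE 0.08, adjusted p = 0.32), lower too. Under trended, robust moderation GMNN passed the threshold (adjusted p = 0.025).

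The MCM ring subunits differed in size of change. MCM4 read 9.50 on both LNCaP-ERG arrays and 9.84 and 10.01 on the vector arrays (-0.42 with SE 0.09, adjusted p = 0.34), and MCM5 read 8.16 and 8.23 against 8.42 and 8.38 (-0.21 with SE 0.08, adjusted p = 0.50). MCM2, MCM3 and MCM6 were lower without overlap at -0.14, -0.12 and -0.12. MCM7 overlapped at -0.03, with an interval of -0.24 to 0.18. Whether the subunits differ from each other was not tested. The origin recognition subunits had -0.19 for ORC1, with overlapping arrays, and -0.03 for ORC6.

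Helicase activation genes showed the same direction, 6 of 6 below 0 against 47.2% of all genes. Their median of -0.16 was -0.081 without vector array 2. MCM10, a scaffold that helps the helicase start, read 6.98 and 7.04 against 7.16 and 7.36 (log2 fold change -0.25 with SE 0.10, limma adjusted p = 0.51), and CDC45, a helicase cofactor, read 8.22 and 8.15 against 8.44 and 8.40 (-0.23 with SE 0.08, adjusted p = 0.45). In both genes the groups stood apart. The GINS subunits, which complete the helicase, had -0.16 for GINS1, -0.12 for GINS2, -0.16 for GINS3 and -0.03 for GINS4, the last 2 with overlapping arrays.

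Of the polymerase and primase genes, 7 of 8 were below 0, with a median of -0.17, where 47.2% of all genes were below 0. PRIM2, the large primase subunit, read 5.88 and 6.13 against 6.43 and 6.42 (log2 fold change -0.42 with SE 0.11, limma adjusted p = 0.37), and PRIM1, the catalytic one, read 8.10 and 8.21 against 8.49 and 8.35 (-0.27 with SE 0.09, adjusted p = 0.46). Both primase subunits were lower on each LNCaP-ERG array. POLD3, a subunit of the lagging-strand polymerase delta, read 7.74 and 7.62 against 7.88 and 7.94 (-0.23 with SE 0.08, adjusted p = 0.49). The catalytic subunits had smaller differences, at -0.11 for POLA1 and -0.15 for POLD1, and POLE, of the leading-strand polymerase epsilon, read 6.26 and 6.30 against 6.23 and 6.19. POLE was thus the 1 member higher without overlap, at a log2 fold change of 0.08 with an interval of -0.12 to 0.27, while its partner subunit POLE2 had -0.19. POLA2 had -0.14 with overlapping arrays.

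The clamp, its loader and the genes that finish lagging strands were below 0 in 10 of 11 cases, against 47.2% of all genes. Their median was -0.14. RFC5, a clamp loader subunit, read 7.53 and 7.73 against 7.95 and 7.94 (log2 fold change -0.32 with SE 0.10, limma adjusted p = 0.43). FEN1, the nuclease that trims Okazaki fragments, read 9.49 and 9.67 against 9.82 and 9.94 (-0.30 with SE 0.10, adjusted p = 0.46). Neither gene's groups overlapped. LIG1, the ligase that seals the same fragments, read 6.44 and 6.37 against 6.31 and 6.49, a log2 fold change of 0.01 with overlapping arrays. PCNA, the clamp itself, read 11.19 and 11.21 against 11.20 and 11.30 (-0.05, interval -0.26 to 0.15). RFC1, RFC3 and RFC4 had -0.13, -0.14 and -0.16 without overlap, RFC2 had -0.06 with overlap, and RPA1, RPA2 and RPA3, which coat single-stranded DNA, had -0.15, -0.18 and -0.05 without overlap.

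Chromatin assembly and fork protection genes were below 0 in 7 of 7 cases, against 47.2% of all genes. Lower without overlap were 4 of the 7, against 19.1% of all genes. The group's median was -0.09, and it was -0.17 with averaged probe sets and -0.16 without vector array 1. DTL, the substrate receptor that marks CDT1 for destruction at the fork, read 8.62 and 8.67 against 9.01 and 8.98 (log2 fold change -0.34 with SE 0.08, limma adjusted p = 0.35). ASF1B, a histone chaperone, read 7.80 and 7.73 against 8.08 and 8.07 (-0.31 with SE 0.08, adjusted p = 0.37). Both were clear of the vector arrays. UHRF1, which guides maintenance of DNA methylation, had -0.13 and TIMELESS, of the fork protection complex, -0.09, both without overlap. CHAF1A, CHAF1B and CLSPN had -0.03, -0.07 and -0.06, with overlapping arrays.

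**Figure D4:**
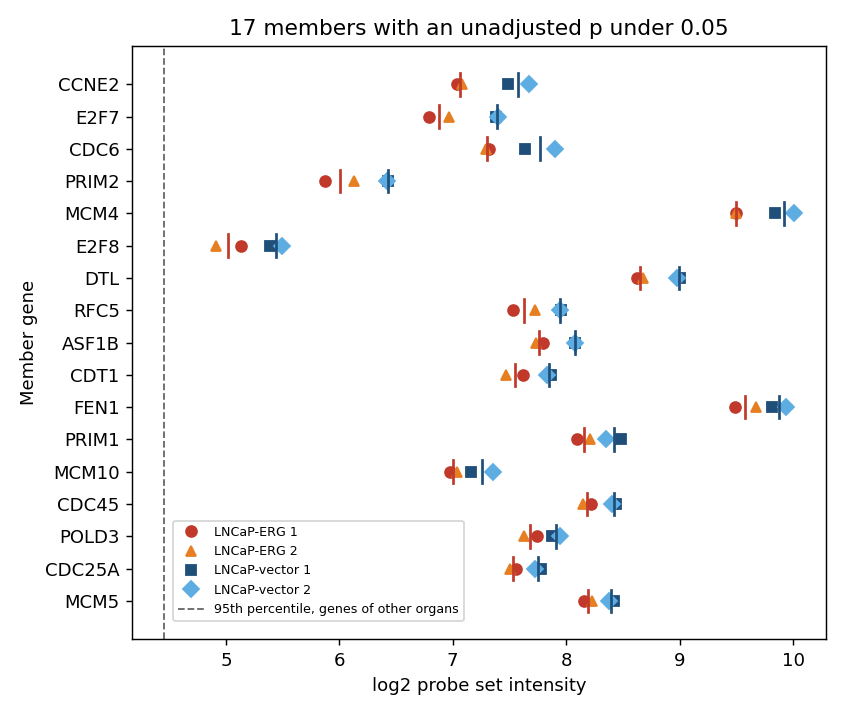
Intensity on the log2 scale (x axis) for the 17 members with an unadjusted p under 0.05 (y axis, from CCNE2 at a log2 fold change of -0.52 to MCM5 at -0.21). Each symbol is 1 array and each short line a group mean, and a dashed line marks 4.45, the level of genes not in use. All 17 lie to its right. In none do the groups overlap, which their choice by p on the same arrays favours.

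Probe sets not used for the gene values gave a further view of the same RNA. There were 43 of them, for 27 of the 49 genes. Of these 43, 37 had a log2 fold change below 0 and 26 (60.5%) were lower without overlap, where 50.6% and 20.1% of all probe sets were. They share arrays and RNA with the chosen probe sets and are not replicates. Those of CDC6 (-0.32), CDT1 (-0.24), FEN1 (-0.35) and DTL (-0.33), 1 for each gene, lay near the values above. MCM10 was lower still at its other probe sets, with -0.53 and -0.43, while its chosen one was at -0.15 without vector array 2.

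Some genes differed between probe sets. Of the 17 genes with an unadjusted p under 0.05, averaging moved 8 by over 1.5 times, bringing CCNE2 to -0.34, E2F7 to -0.27, PRIM2 to -0.23, MCM4 to -0.21, MCM5 to -0.125 and POLD3 to 0.0496, and MCM10 to -0.41 and CDC25A to -0.36. At the probe sets not used, RFC2 had -0.26 and CHAF1A -0.37, -0.12 and, at a dim one, -0.29. PRIM2 had -0.48, -0.33, -0.06 and 0.13 there, at mean log2 intensities of 2.95 to 3.65, below the level of genes not in use. MCM4 had -0.30, -0.13 and, at its dimmest, -0.0016, and MCM5 had -0.04 with overlapping arrays. E2F7 had -0.04 at its second probe set, at a mean log2 intensity of 3.77, and CCNE2 had -0.16 at 3.45, both below the level of genes not in use. The second POLD3 probe set had 0.33 with overlapping arrays. An RPA1 probe set had 0.11, also with overlap. A GINS4 probe set at 3.33 had 0.16 and 1 at 4.35 had -0.32. The probe sets used for CDT1, ORC6, RFC1 and CHAF1A are of the x kind, and those of MCM4, MCM5, MCM10, CDC45, FEN1 and DTL among others of the s kind, and probes of either kind can read related transcripts too.

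Other genes of the same pathway were listed apart from the 49. All 5 measured deoxynucleotide supply genes were lower without overlap, where 19.1% of all genes were, with a median log2 fold change of -0.20. RRM2 and RRM1, subunits of ribonucleotide reductase, had -0.28 (adjusted p = 0.42 from limma) and -0.22 (adjusted p = 0.47). DUT, which removes dUTP, had -0.20 and TYMS, thymidylate synthase, -0.18. With plain probe sets, RRM1 turned to 0.16. Other licensing and origin firing genes had a median of -0.04, with 10 of 16 (62.5%) below 0, where 47.2% of all genes were. At an unadjusted p under 0.05 from limma, 3 were lower and 0 higher, against 4.11% and 5.61% of all genes. That median was -0.109 with plain probe sets, -0.066 with housekeeping centring, -0.028 without LNCaP-ERG array 1, -0.104 without LNCaP-ERG array 2, -0.10 without vector array 1 and -0.011 without vector array 2. GMNN was the one with the smallest p, followed by WDHD1 (-0.31, and -0.19 without vector array 2), MCM8 (-0.27, and -0.12 with averaged probe sets or -0.15 without LNCaP-ERG array 1) and CDC7 (-0.19), the kinase that fires origins. Other fork genes had a median of -0.01, with 11 of 20 below 0, a share near the 47.2% of all genes, and the median was 0.0099 without LNCaP-ERG array 2. Among them POLE3 had -0.24, the nuclease DNA2 -0.29 (-0.17 without vector array 2), and the checkpoint kinases CHEK1 and ATR -0.15 each, ATR turning to 0.0040 with averaged probe sets. Another 9 of these 20 were above 0. Without overlap, 6 were lower and 3 higher, against 19.1% and 21.7% of all genes. The 3 higher were RNASEH2A (0.14), CHTF8 (0.14) and ATRIP (0.10).

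Of 28 measured RB-E2F and G1 cyclin control genes, 22 (78.6%) were below 0, where 47.2% of all genes were. Of the same 28, 15 (53.6%) were lower without overlap and 3 were higher, against 19.1% lower and 21.7% higher among all genes. The median was -0.13, and it became -0.075 when a gene's probe sets were averaged. RBL1, the p107 pocket protein that holds E2F in check and is itself an E2F target, read 5.79 and 5.83 against 6.34 and 6.18 (log2 fold change -0.45 with SE 0.09, limma adjusted p = 0.32). CDK6, a partner of D cyclins, read 5.38 and 5.53 against 5.86 and 5.92 (-0.44 with SE 0.09, adjusted p = 0.32). CDKN1A, the p21 inhibitor of CDK2, was higher, at 9.21 and 9.18 against 8.94 and 8.82 (0.31 with SE 0.08, adjusted p = 0.38), the only gene of this list higher at an unadjusted p under 0.05. FBXO5, which restrains the anaphase-promoting complex from G1/S onward, had -0.32 (adjusted p = 0.42). In each of these genes the groups did not overlap, and none passed the adjusted threshold. With averaged probe sets RBL1 was at -0.084 (adjusted p = 0.80) and CDK6 at -0.21 (adjusted p = 0.48), so the size for both rests on the brightest probe set, and with plain probe sets CDKN1A was at 0.20.

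The G2/M and mitosis list, the nearest relative among cell cycle genes, had a similar median, -0.14. Of its 26 genes 23 were below 0, where 47.2% of all genes were. Lower without overlap were 20 of the 26 (76.9%), against 71.4% of the 49 and 19.1% of all genes. At an unadjusted p under 0.05 from limma the list had 4 of 26 lower (15.4%), against 34.7% of the 49 and 4.11% of all genes. Its lowest value was -0.27, where 10 of the 49 lay at -0.3 or lower. The 4 with the smallest p were TTK (-0.24), a spindle checkpoint kinase, NUSAP1 (-0.22), a spindle protein, MKI67 (-0.22), the proliferation marker, and KIF20A (-0.19), a kinesin of cytokinesis. The difference between these lists was not tested.

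**Figure D5:**
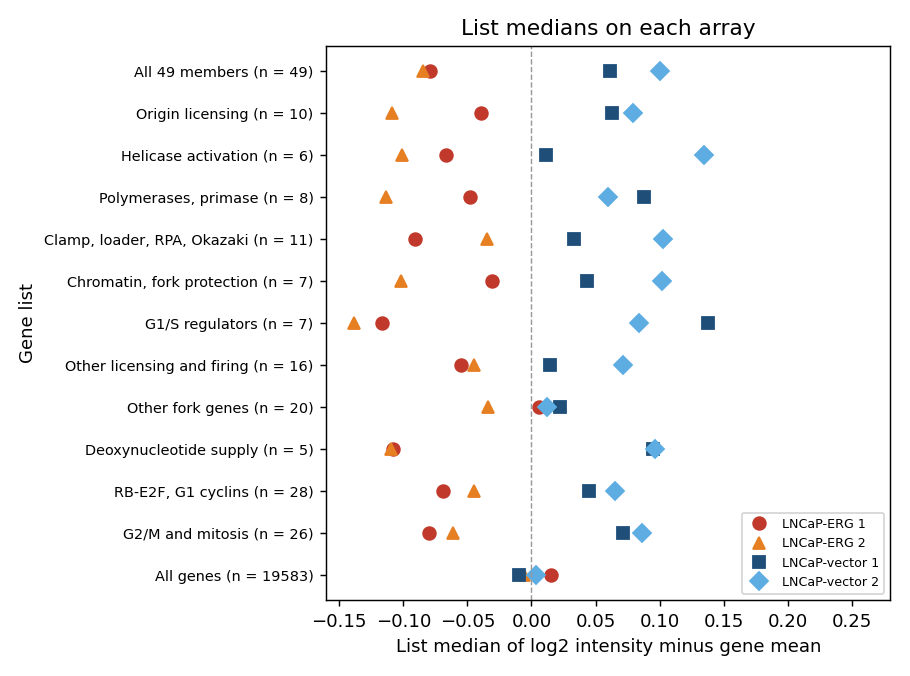
Median over a gene list of log2 intensity minus the gene's mean over the 4 arrays (x axis) for each list (y axis), 1 symbol per array. For the 49 genes the LNCaP-ERG arrays sit at -0.085 and -0.079 and the vector arrays at 0.061 and 0.10, while the arrays lie within -0.010 to 0.015 for all genes.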

How the data were processed

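Total RNA of LNCaP cells was hybridised to 4 Affymetrix GeneChip arrays. The authors analysed scanned images with dChip, normalized the data with RMAexpress and annotated them with Multiexperiment Viewer, with versions and steps within RMAexpress not given in the sources used here. Each deposited value is the intensity of a probe set, taken as linear because of array medians of 14.0 to 14.4 and maxima of 14962 to 15344, and was turned to log2. Of 51965 probe sets, 39466 name 1 gene, 838 several and 11661 none, and 2 with a missing value were left out. The Entrez identifiers of all 49 members gave the same symbols in RefSeq (GRCh38.p14).

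The comparison used limma 3.58.1 under R 4.3.3, with its lmFit and eBayes functions (2 residual and 3.23 prior degrees of freedom), adjusted by Benjamini-Hochberg over 19583 genes at 0.05. The fit was tested on simulated data with planted changes larger than that of any member, so the simulation does not cover changes of the members' size. Promoters were searched in Python 3.11.15. Members and lists were chosen with earlier results of these data known, among them lower cell cycle genes. Array values were given for members with an unadjusted p under 0.05 and the largest change of each of 6 role groups, and up to 4 genes with the smallest p were named from other lists. E2F1, CCNE1, LIG1, PCNA, POLE, VIM, COL1A1, probe sets that disagree and the CCAAT, ETS and CHR letters were chosen after values were seen. So were RNASEH2A, CHTF8 and ATRIP. Settings tried beside it were trended and robust moderation, a filter on dim genes, mean or plain probe sets, all probe sets together, renewed quantile normalization, housekeeping centring, a replicate block, the t-test of the methods, and fits on 3 arrays. The number of arrays limits the precision.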

Additional observations from a re-analysis of the deposited data

How the results depend on the processing

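Over the settings that keep all 4 arrays the members' median log2 fold change stayed below 0, and it was -0.18 with housekeeping centring, which moved the median of all genes to -0.02. With single arrays left out it ran from -0.185 to -0.124, and the count of members lower at an unadjusted p under 0.05 from 9 to 11. With the methods' t-test that count was 11, of which 8 were among the 17 of limma, and 0 passed after Benjamini-Hochberg adjustment. With trended and robust moderation 1 member, MCM4, passed the adjusted threshold (adjusted p = 0.0497, within 0.0497 to 0.69 over the settings with all arrays), and 0 passed under the other settings. The number of genes past it among all genes was 89 with trended and robust moderation, 54 without genes below the median intensity, 14 with averaged probe sets, 6 with housekeeping centring, and 0 with all probe sets adjusted together, the methods' t-test or any array left out. With the replicate block 0 genes passed and 14 members were lower at an unadjusted p under 0.05, against 4.21% of all genes. The numbers are shared by label only, and the deviations of arrays numbered 1 correlated at 0.077. Fits on 3 arrays keep 1 residual degree of freedom, on the assumption that the lone array varies like the other group. GMNN also passed under trended, robust moderation (adjusted p = 0.025), as did VIM (adjusted p = 0.014), which passed without genes below the median intensity too (adjusted p = 0.045). Signs turned for POLD3 from -0.23 to 0.0496, for CCNE1 to 0.038 and for ATR to 0.0040 with averaged probe sets, for RRM1 from -0.22 to 0.16 with plain probe sets, and for LIG1 to -0.018 with housekeeping centring. With single arrays left out the ranges were -0.076 to 0.021 for MCM7, -0.064 to 0.011 for GINS4, -0.14 to 0.013 for RFC2, -0.088 to 0.099 for LIG1, -0.079 to 0.014 for CHAF1A, -0.14 to 0.0027 for CHAF1B, -0.18 to 0.057 for CLSPN, -0.097 to 0.048 for CCNE1, -0.23 to 0.035 for ERG, and -0.034 to 0.0099 for the median of the other fork genes.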
